A study of Mus musculus with 60 samples.

Results

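The data described here are the RNA-seq libraries of MCM2-2A mouse embryonic stem cells (mESCs) with and without depletion of POLE4. The cells were taken 12 hours after the start of retinoic acid (RA) treatment. The libraries were chosen by their labels: 3 libraries of cells treated with dTAG-13 (dPOLE4 MCM2-2A) and 3 libraries of cells treated with the solvent DMSO (Ctrl MCM2-2A), 6 of the 60 libraries of the series. All 6 came from E14JU mESCs that carry POLE4-dTAG, a POLE4 protein fused to a tag through which the small molecule dTAG-13 triggers its degradation, together with the MCM2-2A mutation. The mutant line is a single clone (clone 2 in the labels), so that the effect of the mutation and that of the clone cannot be told apart. Cells were treated with 1 µM dTAG or with DMSO for 24 h in serum and LIF and were then moved to medium with RA and without LIF for 12 h. Whether dTAG stayed in the RA medium is not given in the sources used here. The comparison asks how RNA levels at 12 h of RA differ after POLE4 depletion in cells in which MCM2 cannot bind histones. It includes differences that were already present before RA, which are given near the end.

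When DNA is replicated, the old nucleosomes ahead of the fork are taken apart and their histones are passed on to the new strands. POLE4, a histone-fold subunit of the leading strand polymerase Pol epsilon, takes part in the transfer to the leading strand, and MCM2, a subunit of the replicative helicase, carries histones towards the lagging strand through a histone-binding domain that this mutation disables. RA binds nuclear receptors and induces, within hours, genes such as the Hox genes, while mESCs that lose LIF leave the naive state by way of a formative state marked by Otx2, Lef1 and Zic2.

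Between 13551576 and 28351653 reads were counted per library, 13551576 to 19603463 in Ctrl MCM2-2A and 18430055 to 28351653 in dPOLE4 MCM2-2A, and TMM factors lay between 0.966 and 1.01. Markers of embryonic stem cells were present throughout, with all 12 listed genes tested and a summed level of 4765 to 5045 CPM in Ctrl and 4295 to 4637 CPM in dPOLE4 cells. CPM are counts scaled to library size with TMM over the 48 libraries of the RA experiment. Of 10 fibroblast and feeder cell markers, 5 passed the filter, and their sum was 657 to 680.1 CPM in Ctrl and 631 to 693 CPM in dPOLE4 cells, of which Fn1, a gene that mESCs also express, gave most (634 and 615 CPM on average). Pole4 mRNA was 38.3, 30.6 and 33.9 CPM in Ctrl and 31.2, 36.2 and 34.1 CPM in dPOLE4 cells, and the groups overlapped (log2 fold change -0.021 ± 0.091, adjusted p = 0.937). The tag acts on the protein, so that this mRNA level does not check the depletion. Mcm2 mRNA was 283 ± 19.2 CPM in Ctrl and 258 ± 9.67 CPM in dPOLE4 cells (SD, n = 3, adjusted p = 0.262 in edgeR). The study's methods describe the 3 libraries of a group as biological replicates. Any 2 libraries of a group differed by more than sampling noise (chi-square per degree of freedom 5.04 or above).

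After POLE4 depletion, MCM2-2A cells at 12 h of RA had less mRNA of the formative factors Zic2, Lef1 and Otx2, of linker and some core histones and of some RA-induced genes such as Hoxb2, and more of Btg2, a p53 target, Abcb1b, a drug efflux transporter, and Slc39a4, a zinc importer. Of 18077 features tested (17224 genes and 853 repeat subfamilies), 73 were differentially expressed (DE), that is with an adjusted p below 0.01 in edgeR's quasi-likelihood test and a log2 fold change beyond 0.58, or 1.5-fold, which is 0.404% of all features. Of these, 39 were higher in dPOLE4 cells (0.216%) and 34 were lower (0.188%). Across all features the median log2 fold change was -0.0024 and the median SE was 0.11. In all 73 the 3 dPOLE4 libraries lay apart from the 3 Ctrl libraries, but this was also so for many features that were not called: 11% of all features were lower in every dPOLE4 library than in every Ctrl library and 11.8% were higher in every one. The number of DE features was 27 without replicate 1 of Ctrl and 20 without replicate 2 of dPOLE4. Of the 73, 19 stayed DE whichever library was left out.

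**Figure D1:**
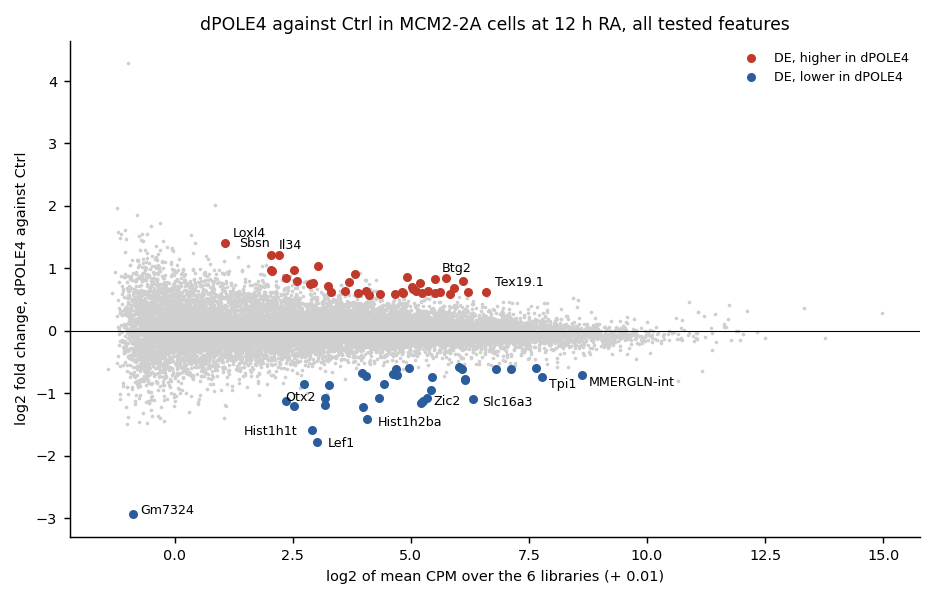
Log2 fold change of dPOLE4 against Ctrl MCM2-2A at 12 h RA (y axis) against the log2 of the mean CPM over the 6 libraries, with 0.01 added (x axis) for the 18077 features tested, with DE features in red (39, higher in dPOLE4) and blue (34, lower). Among the DE features, those that fell reach larger fold changes than those that rose. Lef1 is at -1.78, Hist1h1t at -1.59 and the weakly expressed Gm7324 at -2.93, against 1.41 for Loxl4. Over all features tested the range is -2.93 to 4.28.

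Zic2, a zinc finger transcription factor of the formative state, had the lowest adjusted p of all features. It was at 51.5, 55.3 and 50.5 CPM in Ctrl and 24.2, 23.6 and 24.3 CPM in dPOLE4 cells. The dPOLE4 libraries lay close together and below every Ctrl library (log2 fold change -1.13 ± 0.069 (SE), adjusted p = 3.57e-05). Zic5, its neighbour on chromosome 14 transcribed from the opposite strand (Zic5 at chr14:122456795-122465677 and Zic2 at chr14:122475435-122479852 in GRCm38, 9757 bases apart), was at 54.0, 55.7 and 53 CPM in Ctrl and 32.7, 32.6 and 32.6 CPM in dPOLE4 cells (log2 fold change -0.73 ± 0.063 (SE), adjusted p = 0.000196). Bulk RNA cannot tell fewer cells with Zic2 from less Zic2 RNA per cell, here and for the genes below.

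Lef1, a transcription factor at the end of the Wnt pathway, had the largest fall after Gm7324, which was at under 1 CPM. Its level was 12.4, 11.7 and 13.6 CPM in Ctrl and 2.86, 3.92 and 4.03 CPM in dPOLE4 cells (log2 fold change -1.78 ± 0.14 (SE), adjusted p = 0.000104). Otx2, a homeobox factor of the formative state, was at 11.6, 13.5 and 11.8 CPM in Ctrl and 5.33, 6.14 and 6.07 CPM in dPOLE4 cells (log2 fold change -1.07 ± 0.12 (SE), adjusted p = 0.000905). The ranges of the 2 groups were far apart for both genes. Of 8 listed formative genes, 7 passed the filter. By the fold criterion 3 fell (Lef1, Zic2 and Otx2), against 0.188% of all features, and none rose. The median log2 fold change was -0.69. Pou3f1 (-0.40, adjusted p = 0.0222), Sox4 (-0.28, adjusted p = 0.0358) and Fgf5 (-0.69, adjusted p = 0.284) did not pass, and the keratin gene Krt18 went the other way at 0.55, adjusted p = 0.00584. The study's text names Lef1, Zic2, Zic5 and Otx2 as formative factors that were lower before RA. It also reports low formative gene levels at 12 h of RA from these samples. The direction of these genes is thus not independent evidence. Zic5, given above, is not on the list counted here. Of 16 tested LEF/TCF factors and Wnt targets, Lef1 alone was called, and the Wnt targets Axin2 (0.27, adjusted p = 0.153) and Cdx1 (0.40, adjusted p = 0.0423) did not pass.

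**Figure D2:**
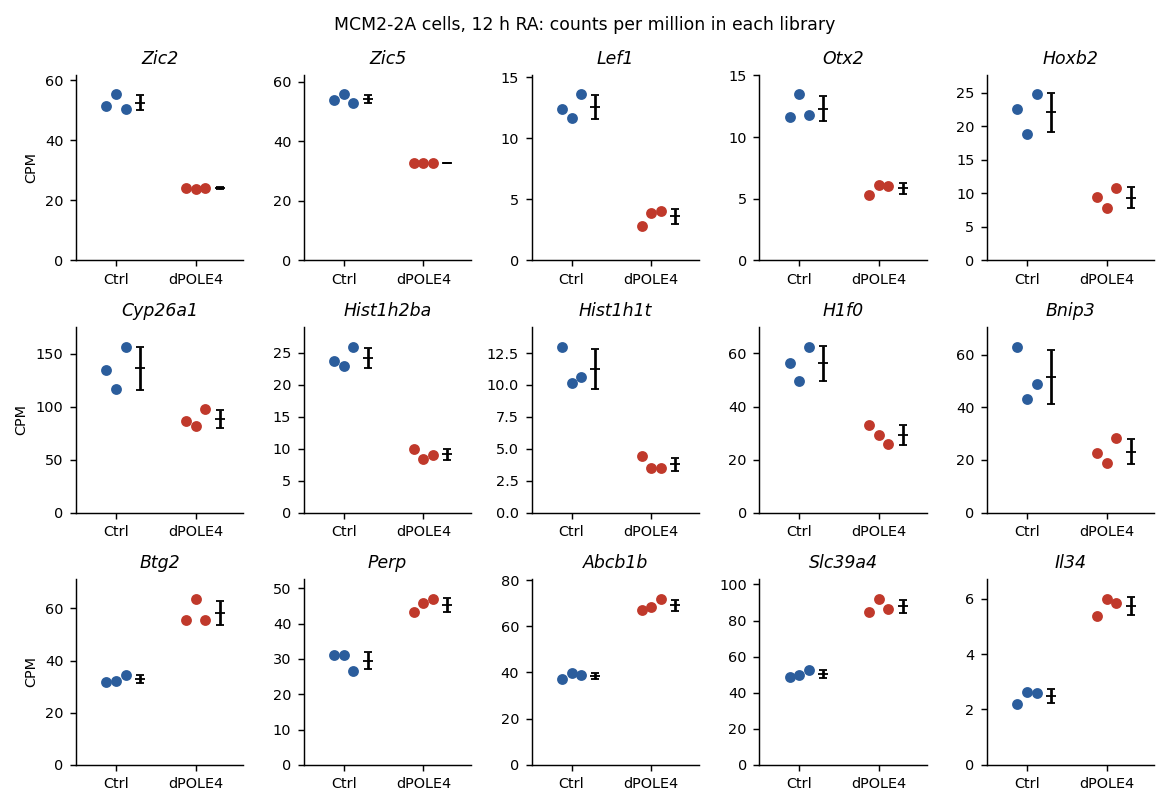
CPM (y axes, each from 0) of 15 DE genes in the 3 Ctrl (blue) and 3 dPOLE4 (red) libraries of MCM2-2A cells at 12 h RA, with the mean and SD of each group as a black bar. In each of the 15 genes the groups do not overlap, for instance 24.0 against 52.4 CPM on average for Zic2 and 58.2 against 32.7 CPM for Btg2.

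Naive pluripotency genes gave no DE call. Of 21 listed genes, all tested, none was DE, and the median log2 fold change was 0.073. In 9 of the 21 every dPOLE4 library was above every Ctrl library, against 11.8% of all features. In 3 every one was below, against 11%. At any fold, 2 passed the adjusted p of 0.01: Tfcp2l1, a self-renewal factor, was higher (log2 fold change 0.39 ± 0.05 (SE), adjusted p = 0.00226). Sox2, shared by pluripotent and neural cells, was lower (log2 fold change -0.38 ± 0.055 (SE), adjusted p = 0.00466). Nanog was at 208 ± 24.1 CPM in Ctrl and 263 ± 11.5 CPM in dPOLE4 cells (adjusted p = 0.0345). Pou5f1 was at 722 ± 64.4 and 660.3 ± 52.3 CPM with overlapping groups (adjusted p = 0.408). Sall1, a zinc finger factor of pluripotent cells, fell from 82.1 ± 7.50 to 53.7 ± 1.99 CPM (log2 fold change -0.62 ± 0.071 (SE), adjusted p = 0.00125). The marker list of embryonic stem cells had a median of -0.12, with Sox2 its single called member.

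All tested linker histone genes and 13 of 61 core histone genes had less mRNA in dPOLE4 cells at an adjusted p below 0.01, as did 0.431% of all features. Replication-dependent histone genes are switched on in S phase from compact promoters, many of them with a TATA box and CCAAT boxes. Linker histone promoters often carry an AAACACA element. The promoter windows of 5 of the genes that were lower are shown to let these elements be seen, 300 bases from 250 before to 50 after the RefSeq start on GRCm38.p6, with capitals marking, on either strand, the TATA box TATAAA, the box CCAAT, the octamer ATTTGCAT and the linker histone element AAACACA:
Hist1h2ba, chr13:23934107-23934406, minus strand: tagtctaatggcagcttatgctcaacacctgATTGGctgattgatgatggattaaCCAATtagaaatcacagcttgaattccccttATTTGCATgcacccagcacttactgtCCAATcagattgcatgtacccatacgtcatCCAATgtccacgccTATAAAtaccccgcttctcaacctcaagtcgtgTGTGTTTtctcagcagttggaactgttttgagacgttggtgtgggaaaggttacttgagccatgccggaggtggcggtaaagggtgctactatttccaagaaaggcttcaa
Hist1h2aa, chr13:23934187-23934486, plus strand: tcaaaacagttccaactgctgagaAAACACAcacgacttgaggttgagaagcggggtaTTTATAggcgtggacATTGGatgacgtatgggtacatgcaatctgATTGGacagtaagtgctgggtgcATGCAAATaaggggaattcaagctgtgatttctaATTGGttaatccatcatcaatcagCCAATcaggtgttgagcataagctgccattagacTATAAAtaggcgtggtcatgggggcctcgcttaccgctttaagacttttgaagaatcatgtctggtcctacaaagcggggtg
Hist3h2a, chr11:58954435-58954734, plus strand: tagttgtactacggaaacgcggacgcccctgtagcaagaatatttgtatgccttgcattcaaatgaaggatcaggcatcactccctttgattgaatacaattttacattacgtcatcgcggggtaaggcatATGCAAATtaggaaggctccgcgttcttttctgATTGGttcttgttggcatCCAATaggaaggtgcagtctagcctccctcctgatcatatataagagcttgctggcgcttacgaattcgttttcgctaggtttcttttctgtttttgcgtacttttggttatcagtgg
Hist1h1t, chr13:23695561-23695860, plus strand: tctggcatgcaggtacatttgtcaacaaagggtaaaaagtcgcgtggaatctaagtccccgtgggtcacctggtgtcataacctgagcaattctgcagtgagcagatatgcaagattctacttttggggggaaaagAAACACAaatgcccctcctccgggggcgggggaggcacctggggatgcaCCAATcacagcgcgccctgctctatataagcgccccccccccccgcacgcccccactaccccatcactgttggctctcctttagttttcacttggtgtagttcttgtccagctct
Hist1h1c, chr13:23738557-23738856, plus strand: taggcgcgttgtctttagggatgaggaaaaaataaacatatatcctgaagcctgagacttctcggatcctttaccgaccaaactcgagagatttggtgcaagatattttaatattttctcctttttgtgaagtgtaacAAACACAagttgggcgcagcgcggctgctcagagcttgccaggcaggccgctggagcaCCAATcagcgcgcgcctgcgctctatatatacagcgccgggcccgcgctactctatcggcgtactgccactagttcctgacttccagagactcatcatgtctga
Hist1h2ba and Hist1h2aa, the testis-enriched H2B and H2A genes, are transcribed away from each other on chromosome 13 with 305 bases between them, and their windows overlap on opposite strands. CCAAT was held by 83.6% of the 55 core histone genes with a RefSeq window and by 7 of the 9 linker histone genes, against 41.1% of all 27025 genes with a window. TATAAA was held by 56.4% of core histone genes and 15.7% of all genes, and the octamer ATTTGCAT by 25.5% and 1.97%. AAACACA was held by 5 of 9 linker histone genes and 8.22% of all genes. A match of letters is a description and shows no binding.

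Hist1h2ba was at 23.8, 22.9 and 26.0 CPM in Ctrl and 10.0, 8.36 and 8.98 CPM in dPOLE4 cells (log2 fold change -1.41 ± 0.10 (SE), adjusted p = 5.59e-05). Hist1h2aa was at 28.5, 24.8 and 27.9 CPM in Ctrl and 13.8, 11.2 and 13.3 CPM in dPOLE4 cells (log2 fold change -1.08 ± 0.10 (SE), adjusted p = 0.000322). Both genes of the divergent pair were thus lower in every dPOLE4 library. On chromosome 11, Hist3h2ba was at 54.5, 55.5 and 54.4 CPM in Ctrl and 28.8, 24.9 and 24.7 CPM in dPOLE4 cells (log2 fold change -1.07 ± 0.076 (SE), adjusted p = 5.59e-05). Hist3h2a was at 83.9, 88.6 and 94.7 CPM in Ctrl and 56.2, 52.1 and 46.6 CPM in dPOLE4 cells (log2 fold change -0.79 ± 0.075 (SE), adjusted p = 0.000322). Trim17 had almost the same values as Hist3h2a in each library and starts at the same base on the same strand (Hist3h2a at chr11:58954685-58956830, Trim17 at chr11:58954685-58973098), so that its call (-0.78) and that of the pseudogene Gm12260 inside it (-0.86) cannot be told apart from that of the histone gene. The pseudogene Hist3h2bb-ps, from the same cluster, was also DE (-1.19, adjusted p = 0.00335).

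All 8 linker histone genes that passed the filter were lower in every dPOLE4 library than in every Ctrl library, as were 11% of all features. Linker histone H1 binds the DNA between nucleosomes. Hist1h1t, the testis-enriched H1, was at 13, 10.1 and 10.6 CPM in Ctrl and 4.39, 3.48 and 3.47 CPM in dPOLE4 cells (log2 fold change -1.59 ± 0.15 (SE), adjusted p = 0.000322). H1f0, the H1 of cells that leave the cycle, was at 56.6, 49.6 and 62.6 CPM in Ctrl and 33.2, 29.1 and 25.8 CPM in dPOLE4 cells (log2 fold change -0.94 ± 0.10 (SE), adjusted p = 0.00092). H1fx fell from 37.1 ± 1.39 to 24.7 ± 1.53 CPM (-0.59, adjusted p = 0.00195) and was called in 1 of the 6 fits that left out 1 library. The 5 somatic S-phase genes were below the fold criterion but passed the adjusted p: Hist1h1e at -0.58, Hist1h1c at -0.57, Hist1h1b at -0.50, Hist1h1d at -0.43 and Hist1h1a at -0.39, with adjusted p-values from 0.000983 to 0.00913. The list's median was -0.57.

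Of 61 core histone genes, all tested, 4 were DE and lower (Hist1h2ba, Hist1h2aa, Hist3h2ba and Hist3h2a), 13 were lower with an adjusted p below 0.01 at any fold (21.3%, against 0.431% of all features), and none was higher by either rule. Their log2 fold changes ran from -1.41 to 0.093 with a median of -0.38, against -0.0024 over all features. In 60 of the 61 the estimate was below 0, Hist2h2ab being the exception. In 43 every dPOLE4 library was below every Ctrl library, as in 11% of all features. Near-identical histone genes share reads that map to several places, so that the values of single copies are uncertain. Together, core and linker histone genes took 0.849%, 0.891% and 0.814% of the counts in the Ctrl libraries and 0.689%, 0.675% and 0.607% in the dPOLE4 libraries. These groups did not overlap, and the exact two-sided permutation test gave p = 0.1, the smallest that 3 against 3 libraries allow. When single libraries were left out, an alternative chosen after seeing the data, the number of core histone genes called at any fold became 5, 8 and 28 without Ctrl replicates 1, 2 and 3. It became 8, 4 and 6 without dPOLE4 replicates 1, 2 and 3. That of linker histone genes became 2 without Ctrl replicate 1 and 1 without dPOLE4 replicate 2.

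**Figure D3:**
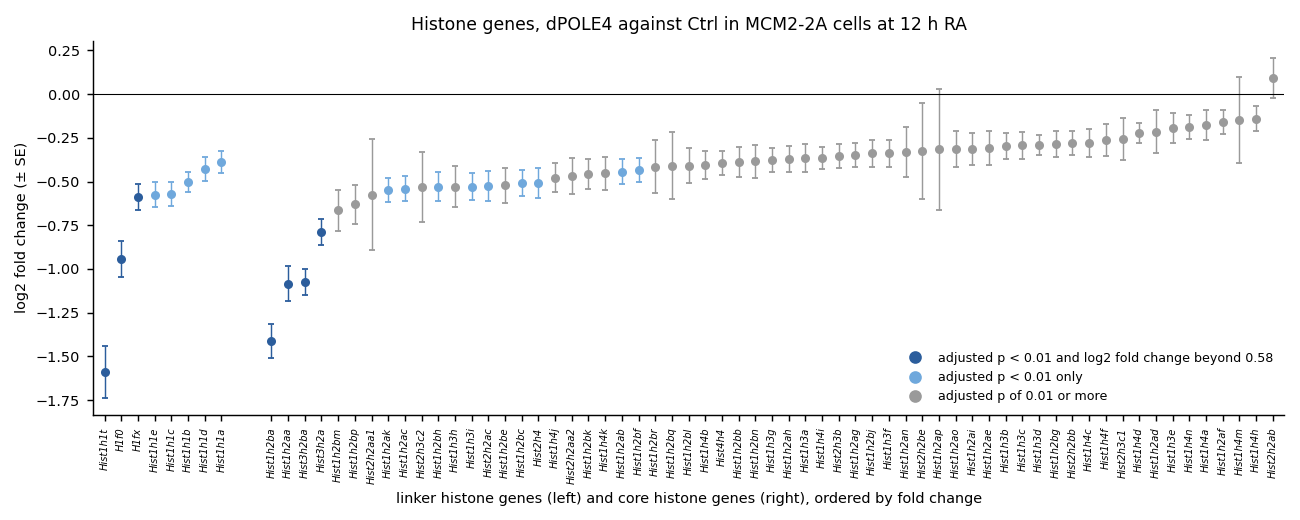
Log2 fold change with its SE (y axis) of the 8 linker histone genes (left) and the 61 core histone genes (right) tested, ordered by fold change, in dPOLE4 against Ctrl MCM2-2A at 12 h RA. Dark blue marks adjusted p below 0.01 with a log2 fold change beyond 0.58, light blue adjusted p below 0.01 alone, and grey the rest. All but Hist2h2ab (0.093) lie below 0.

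Genes of DNA replication, histone chaperones and histone mRNA processing gave no call. Of 36 DNA replication genes none was called at any fold (median -0.027), nor was any of 23 histone chaperones (median -0.064) or 11 genes of histone mRNA processing (median 0.033). Of the cell cycle genes named in the study, 1 of 23 was called, the p53 target Mdm2. The estimate was below 0 in 12 of these 23 and in 25 of the 36 DNA replication genes. In 6 of the 36 every dPOLE4 library was below every Ctrl library, against 11% of all features, and in none was every one above. Of single members, Pcna (269 and 277 CPM), Ccna2 (226 and 240.3 CPM) and Ccne1 (209.6 and 248 CPM) were not below Ctrl on average. Whether the share of cells in S phase differed was not tested here. The study reports that POLE4 depletion left EdU incorporation and cell cycle distribution unaffected, measured at another time point. Of 11 replacement variants, which are made outside S phase, 2 were DE and lower, the linker histones H1f0 and H1fx given above, and 10 had an estimate below 0. H2afy2 (macroH2A2) was lower at any fold (log2 fold change -0.48 ± 0.076 (SE), adjusted p = 0.00698), while H3f3a (-0.13), H3f3b (-0.11) and H2afz (-0.055) did not pass.

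A few RA-induced genes were lower after POLE4 depletion. DE and lower were 1 of 25 tested Hox genes and 1 of 23 genes of RA receptors, metabolism and transport. So were 1 of 5 early RA genes and 1 of 11 TALE homeobox genes, against 0.188% of all features. Each of these counts rests on 1 gene. Hoxb2 was called whichever library was left out, and Cyp26a1, Meis2 and Lefty1 in 2 of 6 such fits each. Hoxb2, a hindbrain Hox gene close to silent before RA (0.224 ± 0.128 CPM in Ctrl MCM2-2A before RA), was at 22.6, 18.9 and 24.8 CPM in Ctrl and 9.45, 7.83 and 10.8 CPM in dPOLE4 cells (log2 fold change -1.22 ± 0.13 (SE), adjusted p = 0.000956). Cyp26a1, the enzyme that degrades RA and a classical RA target, was at 135, 116 and 157 CPM in Ctrl and 86.2, 81.4 and 97.6 CPM in dPOLE4 cells (log2 fold change -0.62 ± 0.10 (SE), adjusted p = 0.00773). Meis2, a TALE homeobox cofactor of Hox proteins, fell from 19.3 ± 1.87 to 12 ± 0.302 CPM (-0.68, adjusted p = 0.00383). The chemokine Cxcl12 fell from 7.97 ± 0.775 to 3.49 ± 0.321 CPM (-1.21, adjusted p = 0.00125). Lefty1, an inhibitor of Nodal signals, fell from 243 ± 28.6 to 160.2 ± 8.70 CPM (-0.60, adjusted p = 0.00226), while Lefty2 (-0.23, adjusted p = 0.0875), Sox1 and Sox3 of the early RA genes named in the study did not pass. The receptor of ciliary neurotrophic factor, Cntfr, and the chromatin remodeller Chd7 were DE as well (-0.59, adjusted p = 0.00823 and -0.61, adjusted p = 0.00039).

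Of 39 Hox genes 25 were tested, and Hoxb2 alone was DE (median -0.42). In 14 of the 25 every dPOLE4 library was below every Ctrl library (the background being 11%), with Hoxb1 at -0.75, adjusted p = 0.0118, Hoxb5 at -1.0, adjusted p = 0.0118 and Hoxb4 at -0.48, adjusted p = 0.0357 outside the threshold. At any fold the 1 Hox call became 3 without Ctrl replicate 2 and 2 without dPOLE4 replicate 3. Among 23 genes of RA receptors, metabolism and transport Cyp26a1 was the single call, with Rara at -0.32, adjusted p = 0.0334 and Rarg at -0.25, adjusted p = 0.04. Stra8, an RA-induced gene of germ cells, had overlapping levels (253 ± 22.7 and 253 ± 9.96 CPM, log2 fold change 0.000322 ± 0.068).

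The RA response as a whole was read from other libraries, control cells with WT MCM2 at 12 h against 0 h, in which 1279 features were RA-induced and 714 RA-repressed. Of the 34 features lower in dPOLE4 MCM2-2A cells, 16 (47.1%) were RA-induced, among them Hoxb2, Cyp26a1, Meis2, Lefty1, Cxcl12, Slc16a3, Bnip3 and 4 histone genes, and 4 (11.8%) were RA-repressed: Otx2, Sall1, Tenm4 and Bnc2. Of the 39 features that were higher, 1 (2.56%) was RA-induced and 8 (20.5%) were RA-repressed. Among the features that were not DE, 6.96% were RA-induced and 3.54% RA-repressed. Over the whole RA response the median was -0.02 over the 1270 induced features tested (1 DE and higher, 16 DE and lower) and 0.044 over the 650 repressed ones.

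Tpi1, Slc16a3 and Bnip3, genes of glycolysis and of the response to low oxygen, were DE and lower. Tpi1 and Slc16a3 are not on the hypoxia and glycolysis list and were grouped with Bnip3 after their calls were seen. Tpi1, triosephosphate isomerase of glycolysis, was at 289, 242 and 292 CPM in Ctrl and 164, 162 and 167 CPM in dPOLE4 cells (log2 fold change -0.74 ± 0.071 (SE), adjusted p = 0.000378). Slc16a3, which exports lactate, was at 126, 85.4 and 116 CPM in Ctrl and 53.5, 46.3 and 53.6 CPM in dPOLE4 cells (log2 fold change -1.09 ± 0.12 (SE), adjusted p = 0.000983). Bnip3, a mitophagy receptor induced in hypoxia, was at 63.1, 43.1 and 48.8 CPM in Ctrl and 22.5, 18.7 and 28.3 CPM in dPOLE4 cells (log2 fold change -1.15 ± 0.16 (SE), adjusted p = 0.00332). Of 28 tested features of the hypoxia and glycolysis list, 1 was DE and lower (Bnip3), against 0.188% of all features. At any fold 4 were lower, against 0.431% of all features. These were Bnip3, the pyruvate dehydrogenase kinase Pdk1 (-0.55, adjusted p = 0.00195), the phosphofructokinase Pfkl (-0.54, adjusted p = 0.00581) and the lactate dehydrogenase Ldha (-0.45, adjusted p = 0.00723). In 23 of the 28 the estimate was below 0 (median -0.26). The count at any fold was 0 without Ctrl replicate 1 or dPOLE4 replicates 1 or 2, 2 without dPOLE4 replicate 3 and 10 without Ctrl replicate 2. 

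Genes that respond to hypoxia often hold the core ACGTG of the hypoxia response element near their start, which the promoter windows of Bnip3 and Slc16a3 show in capitals, on either strand (RefSeq, GRCm38.p6, same window as above):
Bnip3, chr7:138909457-138909756, minus strand: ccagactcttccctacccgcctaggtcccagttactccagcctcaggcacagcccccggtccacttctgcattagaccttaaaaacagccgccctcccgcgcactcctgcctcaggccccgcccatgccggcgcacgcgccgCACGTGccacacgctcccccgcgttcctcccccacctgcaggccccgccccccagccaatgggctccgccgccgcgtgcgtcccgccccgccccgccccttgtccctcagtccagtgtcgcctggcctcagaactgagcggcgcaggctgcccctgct
Slc16a3, chr11:120948817-120949116, plus strand: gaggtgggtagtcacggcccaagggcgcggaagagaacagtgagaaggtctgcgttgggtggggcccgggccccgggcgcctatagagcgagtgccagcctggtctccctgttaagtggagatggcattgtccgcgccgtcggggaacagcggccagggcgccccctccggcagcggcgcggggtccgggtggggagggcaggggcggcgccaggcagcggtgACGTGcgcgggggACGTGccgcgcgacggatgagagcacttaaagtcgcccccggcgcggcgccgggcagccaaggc
ACGTG was held by 76.0% of the 25 genes of the list with a window and by 21.8% of all genes, and not by the window of Tpi1. As with the histone promoters, a match of letters is a description.

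Targets of p53, the factor that responds to DNA damage and other stress, were among the 39 features that rose. Btg2, an antiproliferative target of p53, was at 31.6, 32.2 and 34.5 CPM in Ctrl and 55.4, 63.7 and 55.6 CPM in dPOLE4 cells (log2 fold change 0.83 ± 0.073 (SE), adjusted p = 0.000243). Plk2, a Polo-like kinase and p53 target, rose from 46.0 ± 4.22 to 73.8 ± 3.98 CPM (0.69, adjusted p = 0.000956). Perp, a p53 target found in desmosomes, rose from 29.6 ± 2.51 to 45.4 ± 1.92 CPM (0.61, adjusted p = 0.00225). Its call held in 2 of the 6 fits that left out 1 library. Of 24 tested p53 targets these 3 were DE, 5 were higher at any fold (20.8%, against 0.431% of all features) and none was lower. The remaining pair was Mdm2 at 0.39, adjusted p = 0.00584 and Phlda3 at 0.54, adjusted p = 0.0096. The median of the list was 0.29, and Cdkn1a (0.32, adjusted p = 0.0572), Bax (-0.046, adjusted p = 0.849) and Gdf15 (-0.11, adjusted p = 0.827) did not pass. The number called at any fold was 2 without Ctrl replicate 1 and 1 without dPOLE4 replicate 2. Trp73, a relative of p53, rose from 9.51 ± 0.341 to 16.4 ± 1.81 CPM (0.79, adjusted p = 0.00268), and Sfn, the 14-3-3 sigma protein, from 32.4 ± 3.40 to 50.5 ± 4.78 CPM (0.64, adjusted p = 0.00373).

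Of 16 genes of a mixed list of keratins, cadherins, claudins and other genes, 5 were DE and higher, against 0.216% of all features. The genes called were Sbsn, Abcb1b, Btg2, the integrin Itgb4 and the tight junction protein Cldn4. Cldn4 was called in 2 of the 6 fits that left out 1 library. The list was written with earlier results of these data known. The study had picked Itgb4, Btg2 and Abcb1b as genes repressed by Zic2, from cells before RA, so that their direction is not independent evidence, and Btg2 is also counted among the p53 targets above. Abcb1b, a drug efflux transporter, was at 37.1, 39.7 and 38.8 CPM in Ctrl and 67.2, 68.3 and 71.9 CPM in dPOLE4 cells (log2 fold change 0.84 ± 0.063 (SE), adjusted p = 6.54e-05). Sbsn, suprabasin of stratified epithelia, was at 3.09, 2.36 and 2.83 CPM in Ctrl and 6.48, 7.01 and 5.93 CPM in dPOLE4 cells (log2 fold change 1.22 ± 0.15 (SE), adjusted p = 0.00196). Itgb4 rose from 25.5 ± 1.85 to 40.6 ± 4.87 CPM (0.67, adjusted p = 0.00307). The keratins Krt18 (0.55, adjusted p = 0.00584) and Krt7 (0.50, adjusted p = 0.00773) passed at any fold. At any fold 7 of 16 were thus higher, against 0.431% of all features. The number was 2 without Ctrl replicate 1, 4 without dPOLE4 replicate 1 and 2 without dPOLE4 replicate 2. Cdh1 (-0.073, adjusted p = 0.517) and Epcam (-0.20, adjusted p = 0.0617) did not pass. The median of the list was 0.44.

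Krt7 and Krt18 are also markers of trophoblast, and 10 of the 11 trophoblast markers tested had an estimate above 0 (median 0.47), none of them DE. Their summed level was 236 to 264 CPM in Ctrl and 307 to 374 CPM in dPOLE4 cells. Cdx2, a defining trophoblast factor, was at 5.69 and 5.00 CPM, Tpbpa had no count in the 6 libraries, and Gata3 was at 0.90, adjusted p = 0.014. Tead4, a factor of the trophoblast lineage that is on no list, was DE (0.59, adjusted p = 0.00629). Hand1, of mesoderm and trophoblast, was the DE member of the mesoderm list (0.72, adjusted p = 0.00773), whose 15 listed genes summed to 52.1 to 56.1 CPM in Ctrl and 65.0 to 67.5 CPM in dPOLE4 cells. Hand1 was called in 1 of the 6 fits that left out 1 library. The sums of endoderm markers overlapped (1037 to 1196 and 1129 to 1219 CPM), and so did those of neural markers (162 to 177 and 166 to 181 CPM). The part of these cell types in the results was not tested.

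Transporters, ligands and a germline gene were also among the rises. Slc39a4, a zinc importer, was at 48.8, 49.7 and 52.6 CPM in Ctrl and 84.7, 92.0 and 86.6 CPM in dPOLE4 cells (log2 fold change 0.80 ± 0.059 (SE), adjusted p = 6.54e-05). The levels of the 2 groups were well separated. Il34, a ligand of the receptor Csf1r, was at 2.2, 2.65 and 2.60 CPM in Ctrl and 5.38, 5.99 and 5.86 CPM in dPOLE4 cells (log2 fold change 1.22 ± 0.15 (SE), adjusted p = 0.00195). Flvcr2, a membrane transporter, rose from 5.34 ± 0.246 to 11 ± 1.47 CPM (1.05, adjusted p = 0.00195). The ligand Pdgfa rose from 36.0 ± 2.47 to 54.7 ± 3.84 CPM (0.61, adjusted p = 0.00195) and the secreted matrix protein Tinagl1 from 27.2 ± 2.36 to 46.1 ± 1.69 CPM (0.76, adjusted p = 0.000425). Among 19 tested germline genes, Tex19.1, a germ cell and stem cell gene, was DE (0.63, adjusted p = 0.00195) and Piwil2, a Piwi protein, was higher at any fold (0.48, adjusted p = 0.00584), with a list median of 0.29. The others of the 15 largest rises were Loxl4, Dusp8, Ltb4r2, Slc1a1, 1700007K13Rik, AU015836, Slc52a3 and Unc13d, with log2 fold changes from 0.79 to 1.41 and adjusted p-values from 0.000425 to 0.00982. Of the largest falls, Cyp2b23 was at -1.12, adjusted p = 0.00196 and Gm7324 went from 0.944, 0.978 and 0.917 to 0.165, 0.0483 and 0.140 CPM (-2.93, adjusted p = 0.00561), a level at which few reads decide and a member of a multigene family that can share reads. Of 10 DE features that lost their call whichever library was left out, 9 were rises (Adamts7, Dusp8, Ikbke, Loxl4, Slc1a1, Slc52a3, Slc5a5, Tead4 and Unc13d) and 1 was a fall (Skida1).

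Of 42 gene and repeat lists, 17 held a DE feature and 25 held none, and in 19 no member was called at any fold. Among the latter were 20 genes of cholesterol synthesis, all with an estimate below 0 but none called (median -0.15), 23 genes of FGF signals (median -0.12) and 15 tested genes and repeats of 2-cell-like cells (median 0.41, with overlapping groups in each). Of 27 Polycomb genes, Jarid2, a cofactor of PRC2, was lower at any fold (log2 fold change -0.37 ± 0.054 (SE), adjusted p = 0.00437), and Ezh2 (-0.16, adjusted p = 0.125), Suz12 (0.12, adjusted p = 0.412) and Eed (0.032, adjusted p = 0.829) did not pass. The 15 transcripts of the mitochondrial genome had overlapping groups, a median of 0.23 and no call.

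Repeats were counted as subfamilies, and 2 of 853 were DE. MMERGLN-int, the internal part of a murine endogenous retrovirus, was at 490.4, 468 and 497 CPM in Ctrl and 298, 279 and 317 CPM in dPOLE4 cells (log2 fold change -0.70 ± 0.063 (SE), adjusted p = 0.000252). All 3 dPOLE4 libraries were below every Ctrl library. Its level in WT MCM2 cells at 12 h of RA was 258 ± 8.67 CPM in Ctrl and 248 ± 14.5 CPM in dPOLE4 libraries (SD, n = 3), and in MCM2-2A cells before RA it was 493 ± 19 and 313 ± 8.11 CPM. ERVB4_2-I_MM-int, another retroviral subfamily, was higher, at 12.5, 12.4 and 14.1 CPM in Ctrl and 18.6, 19.2 and 22.2 CPM in dPOLE4 cells (log2 fold change 0.63 ± 0.10 (SE), adjusted p = 0.00744). It was called in 1 of the 6 fits that left out 1 library. Of 474 tested LTR subfamilies these 2 were called (median -0.069), and of 126 LINE and 32 SINE subfamilies none was (medians -0.082 and -0.064). The share of counts on repeats was 8.10% ± 0.518 in dPOLE4 and 8.15% ± 0.438 in Ctrl cells (SD, n = 3), a difference of -0.056 percentage points (exact two-sided permutation test, p = 0.9).

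The same depletion in cells with WT MCM2, also at 12 h of RA, asks whether the effect depends on the MCM2-2A background. There edgeR called 0 of 17914 features, with 1150 at an unadjusted p below 0.05, and DESeq2 called 2. The difference of the effects, tested over 18911 features, passed for 3, all of them lower in the MCM2-2A background (1399 had an unadjusted p below 0.05). Hist1h1t had an effect of -1.59 in MCM2-2A and -0.16 in WT MCM2 cells (difference -1.43 ± 0.17, adjusted p = 0.00222). Zic2 had -1.13 and -0.22 (difference -0.90 ± 0.10, adjusted p = 0.00222), and MMERGLN-int -0.70 and -0.055 (difference -0.64 ± 0.083, adjusted p = 0.00495). None of the 3 passed without WT Ctrl replicate 1 or without MCM2-2A dPOLE4 replicate 2, and 1 feature passed without WT dPOLE4 replicate 1 against 6 without WT Ctrl replicate 2 or without MCM2-2A Ctrl replicate 3. The lines differ in clone as well as in MCM2.

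For the other 70 DE features the difference between the backgrounds did not pass in edgeR. DESeq2 called it in 12 of them, among them Lef1, Zic5, Sall1, H1f0 and 3 core histone genes, and leaving out 1 library in up to 3, an alternative chosen after seeing the data. The 72 that were tested in WT MCM2 cells all had the same sign there, against 61.1% of all 17326 features tested in both, and their median effect was 0.20 for the features higher in MCM2-2A cells and -0.26 for those lower. The effect was larger in MCM2-2A cells in 71 of the 72, in part because they were chosen for their size there. Lef1 was at -0.51 in WT MCM2 cells (difference -1.27 ± 0.19, adjusted p = 0.0121), Otx2 at -0.50 (difference -0.57 ± 0.18, adjusted p = 0.381), Hoxb2 at -0.54 (difference -0.68 ± 0.21, adjusted p = 0.377) and Btg2 at 0.31 (difference 0.53 ± 0.13, adjusted p = 0.207). The median over core histone genes was -0.014 in WT MCM2 cells and over linker histone genes -0.072, beside -0.38 and -0.57 in MCM2-2A cells. That of formative genes was -0.29 beside -0.69, and that of the hypoxia and glycolysis list -0.24 beside -0.26. For Hox genes the medians were -0.27 in WT MCM2 and -0.42 in MCM2-2A cells. They were -0.28 and -0.23 for the early RA genes, and -0.096 and -0.16 for RA receptors, metabolism and transport. Lefty1 had an effect of -0.60 in both lines (difference 0.0082 ± 0.19, adjusted p = 0.998).

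**Figure D4:**
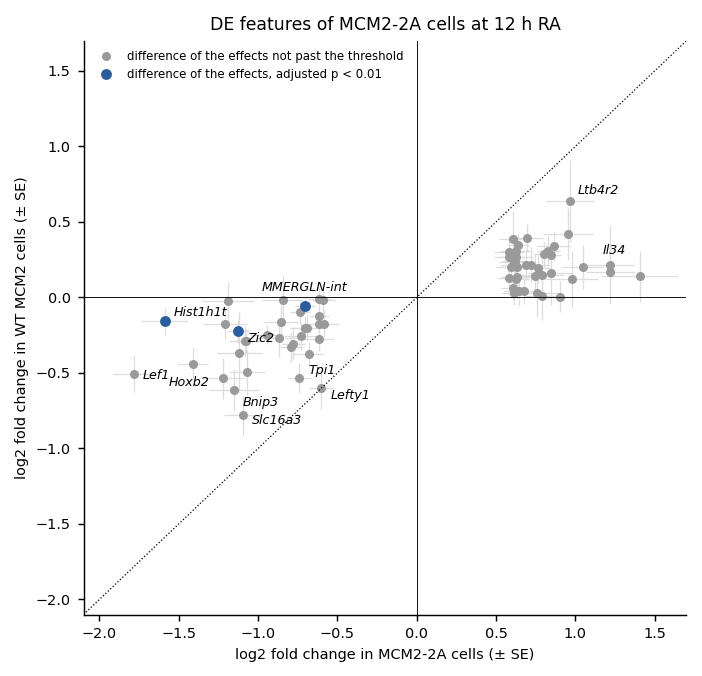
Log2 fold change of dPOLE4 against Ctrl at 12 h RA in WT MCM2 cells (y axis) against that in MCM2-2A cells (x axis) for the 72 DE features of MCM2-2A cells tested in both lines, with bars for the SE and a dotted line of equal effect. All 72 have the same sign in both lines and 71 lie nearer to 0 in WT MCM2 cells, and the 3 features whose difference passed are in blue.

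Before RA, after 24 h of dTAG, 13 features were DE in MCM2-2A cells (4 higher and 9 lower), and 143 (86 and 57) with the replicate number as a block, which pairs the samples at this time. At 24 h of RA there were 188 (95 and 93), and 288 (158 and 130) with the block. Of the 73 features DE at 12 h, 72 were tested before RA, where 70 had the same sign (65.7% of all features did) and 11 were DE, which is 15.3% of the 72 and 84.6% of the 13. With the block 33 were DE, 45.8% of the 72 and 23.1% of the 143. At 24 h, 72 of 72 had the same sign (67.8% of all features did) and 46 were DE, 63.9% of the 72 and 24.5% of the 188. With the block 51 were DE, 70.8% of the 72 and 17.7% of the 288. The median effect of features higher at 12 h was 0.53 before RA and 0.65 at 24 h, and that of features lower at 12 h -0.72 and -0.80. No feature passed the test of a difference between 12 h and 0 h (0 in edgeR and DESeq2, 737 at an unadjusted p below 0.05) or between 24 h and 12 h (0 in both, 1077 unadjusted). The counts before RA fell to 0 without Ctrl or dPOLE4 replicate 2, to 2 and 3 without Ctrl replicates 1 and 3 and to 6 without dPOLE4 replicate 3, and rose to 21 without dPOLE4 replicate 1. Those at 24 h fell to 102 and 87 without Ctrl replicates 1 and 2.

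Zic2 was at 46.4 ± 4.6 and 27.0 ± 0.667 CPM (SD, n = 3) in Ctrl and dPOLE4 MCM2-2A cells before RA and at 37.4 ± 3.55 and 17.0 ± 0.530 CPM at 24 h (log2 fold changes -0.77, adjusted p = 0.00606, and -1.13, adjusted p = 1.55e-05). Hoxb2, scarcely expressed before RA, was at 52.2 ± 4.02 and 24.1 ± 2.30 CPM at 24 h and still lower in dPOLE4 cells (-1.10, adjusted p = 1.59e-05). The histone lists had medians of -0.53 (core) and -0.59 (linker) before RA and -0.28 and -0.41 at 24 h.

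**Figure D5:**
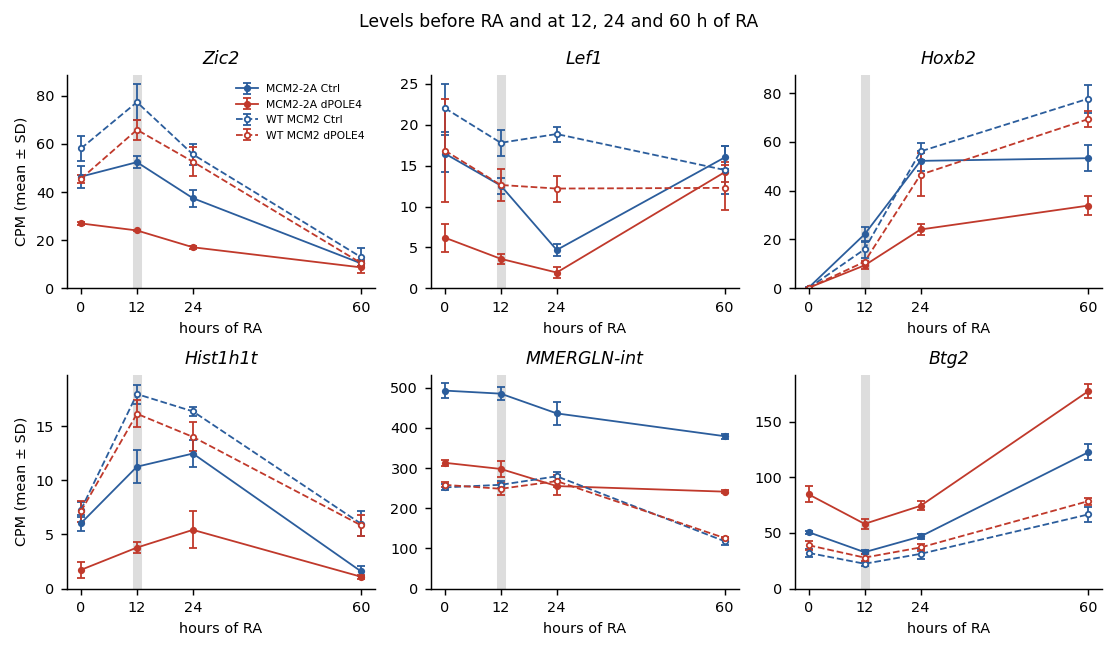
Mean CPM with SD (y axes, n = 3 libraries) of 6 DE features over time in RA (x axis, hours) in Ctrl (blue) and dPOLE4 (red) cells of the MCM2-2A line (solid lines) and the WT MCM2 line (dashed lines). In the MCM2-2A line the 2 groups are apart at 12 h for each feature drawn, as for MMERGLN-int at 485 and 298 CPM.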

How the data were processed

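RNA-seq was run on rRNA-depleted, stranded, paired-end libraries. The authors trimmed reads with cutadapt 4.2, aligned them with STAR to mm10 keeping reads that map to several places, and counted genes (GENCODE) and repeat subfamilies together with TEcount. The deposited values are raw counts, neither normalized nor pooled. Because reads that map to several places were kept, near-identical copies can share reads. The table held 55487 genes and 1146 repeat subfamilies, and 55227 genes were matched to symbols and positions in GRCm38 (mm10). Promoter windows came from RefSeq (GRCm38.p6) and were matched by symbol.

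Groups were taken from the sample labels. Features were kept by filterByExpr (minimum count 10, minimum total count 15), normalized with TMM over genes and repeats and tested with the quasi-likelihood test of edgeR 4.0.16 (R 4.3.3) with Benjamini-Hochberg adjustment, with 3 against 3 libraries and no covariates. A feature was differentially expressed (DE) at an adjusted p below 0.01 and a log2 fold change beyond 0.58, the thresholds of the study, which used DESeq2. DESeq2 1.42.0 was an alternative here, as were other filters and scalings, a replicate block and leaving out each library. Differences between effects were tested as contrasts over 4 groups. Shares of counts were compared with exact permutation tests. CPM were counts scaled to library size with TMM over 48 libraries, which held 10461077 to 46609151 counts. In simulated counts for the 12 h comparison (18077 features), changes of 0.6, 1, 1.5 and 2 on the log2 scale were called in 42%, 78%, 94% and 94% of 50 features each, and 5 unchanged features were called.

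Named features were Pole4 and Mcm2, DE features on the gene lists, the 15 largest non-overlapping changes in each direction, members of the formative, naive, early RA, RA receptor and histone lists, the features with a difference of effects and DE repeats. All others, such as Sfn, Tead4, Jarid2 and Axin2, were named after their values were seen. The libraries and lists were chosen with earlier results of these data known. Same-numbered libraries of MCM2-2A cells deviated together before RA (correlations 0.45, 0.18 and 0.39) and at 24 h (0.12, 0.19 and 0.27), which pairs them there. Those of WT MCM2 cells at 12 h also did (0.24, 0.14 and 0.089), as did WT MCM2 Ctrl cells at 12 h and 0 h (0.19, 0.069 and 0.093). The main tests on all these libraries, and those of differences between effects, left this pairing out. Some members of the gene lists are not reported here.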

Additional observations from a re-analysis of the deposited data

Results flagged for a closer look

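In 3 features the effect of POLE4 depletion at 12 h RA differed between MCM2-2A and WT MCM2 cells by the test of the difference itself. The difference, MCM2-2A minus WT MCM2 on the log2 scale, was -1.43 ± 0.17 (SE) for Hist1h1t, the testis-enriched linker histone (adjusted p = 0.00222 in edgeR), -0.90 ± 0.10 for Zic2 (adjusted p = 0.00222) and -0.64 ± 0.083 for the retroviral subfamily MMERGLN-int (adjusted p = 0.00495). When each of the 12 libraries was left out in turn, the adjusted p was below 0.01 in 8 cases for Hist1h1t (range 0.00311 to 0.0165), in 10 for Zic2 (0.000231 to 0.0165) and in 6 for MMERGLN-int (0.00678 to 0.031). The difference kept its sign in all of them. The mutation and the clone cannot be told apart.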

How the results depend on the processing

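The 73 DE features at 12 h RA became 115 with DESeq2 (66 higher, 49 lower), 245 without a filter (166 and 79), 5 with glmTreat against 1.5-fold, 156 without a fold cutoff, 180 at an adjusted p below 0.05 (116 and 64) and 20 to 82 when 1 library was left out. DESeq2 size factors gave 73, TMM from genes alone 69, a stricter filter 75, all 4 groups at 12 h 107 and a robust fit 93. Same-numbered libraries did not deviate together at 12 h (correlations 0.18, -0.028 and -0.32, with 1 of 3 nearest to its own number), and the replicate block gave 13 (3 higher, 10 lower). DESeq2 kept the call of 72 of 72 DE features with a value, and no DE feature reversed under DESeq2, the scalings, the stricter filter, the block, all 4 groups or any library left out. The scalings moved the median of all features by at most 0.01.

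The features whose effect differed from WT MCM2 cells numbered 20 with DESeq2, 2 with the replicate block and 0 to 6 with 1 library left out. In WT MCM2 cells at 12 h the 0 became 2 with DESeq2, 3 with the block and 0 to 4 with 1 library left out (4 without Ctrl replicate 3). Before RA the 13 became 73 with DESeq2, 143 with the block and 0 to 21 with 1 library left out, and at 24 h the 188 became 288 with the block and 87 to 170 with 1 left out. The difference in repeat share ran from -0.275 to 0.235 percentage points and turned positive without Ctrl replicate 1 (0.162) or dPOLE4 replicate 2 (0.235). List counts under alternatives were chosen after seeing the data: at any fold, DESeq2 called 34 core histone genes, 11 of the hypoxia and glycolysis list, 8 p53 targets and 5 Hox genes, and the block 3, 0, 1 and 1. The causes of these shifts were not tested. With 3 libraries a group, a change near the fold criterion can be missed.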
